A study of Homo sapiens with 6 samples.

Results

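The regions described here are BG4 ChIP-seq peaks that lay inside protein-coding genes, more than 1 kb from both ends of every annotated gene. Peaks were taken from the HD list and the Ctrl list on chromosomes 1 to 22 and X, and a peak was kept when it overlapped a coding gene body and kept that distance from the ends of all genes, coding or not. The rule used position only. It found 239 of 2269 HD peaks and 462 of 3507 Ctrl peaks, or 701 of the 5776 peaks in both lists. The HD cells were U2OS cells treated with 1,6-hexanediol and the Ctrl cells were untreated U2OS cells, with 2 ChIP libraries and 1 input library in each condition. U2OS is a human osteosarcoma cell line. All cells were fixed with 1% formaldehyde for 10 min, which was stopped with 0.125 M glycine. Neither the dose nor the length of the hexanediol treatment is given in the sources available. One peak list was deposited for each condition, so no value has a replicate error, and p-values below take peaks as their units and compare these lists. The HD list may rest on 1 of the 2 HD libraries, since all its peak names carry the number of 1 library.

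BG4 is an antibody that binds G-quadruplexes, four-stranded DNA structures that can form where runs of guanines lie close together. They are known mainly from promoters and other open chromatin, where genes start. A human gene body can hold further starts, from which shorter transcripts of the same gene begin. 1,6-Hexanediol is an aliphatic alcohol that weakens hydrophobic contacts and dissolves many biomolecular condensates.

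Many of the gene-interior peaks lay at or near a listed start inside a gene. RefSeq promoter windows, which run from 250 bases before to 50 after a listed start, were available for the hosts of 186 HD and 367 Ctrl peaks. Of these, 65 HD peaks (34.9%, exact binomial 95% interval 28.1 to 42.3) and 113 Ctrl peaks (30.8%, 26.1 to 35.8) overlapped the window of a listed inner start. They are called peaks at a listed inner start below. The window was not required to belong to the host gene. The 9 windows below show what these starts look like. They are the first by rank whose summit (the HD one where both lists had a peak) fell within the window: 5 marked in both lists, 2 in HD alone and 2 in Ctrl alone. They come from RefSeq on GRCh38.p14 and read 5′ to 3′ on the strand of the gene, with runs of 3 or more G or 3 or more C in capitals.

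The windows marked in both lists were those of GNAI2 (chr3:50235954-50236253, plus strand), USP32 (chr17:60392084-60392383, minus strand), THRAP3 (chr1:36224193-36224492, plus strand), SNX8 (chr7:2314392-2314691, minus strand) and FAM117A (chr17:49764082-49764381, minus strand).
GNAI2: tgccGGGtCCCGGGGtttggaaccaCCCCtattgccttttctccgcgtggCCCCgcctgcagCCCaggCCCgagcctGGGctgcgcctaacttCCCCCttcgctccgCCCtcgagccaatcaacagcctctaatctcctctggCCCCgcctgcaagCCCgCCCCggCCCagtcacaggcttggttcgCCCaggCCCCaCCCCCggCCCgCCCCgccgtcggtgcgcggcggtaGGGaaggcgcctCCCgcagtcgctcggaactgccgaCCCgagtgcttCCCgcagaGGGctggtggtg
USP32: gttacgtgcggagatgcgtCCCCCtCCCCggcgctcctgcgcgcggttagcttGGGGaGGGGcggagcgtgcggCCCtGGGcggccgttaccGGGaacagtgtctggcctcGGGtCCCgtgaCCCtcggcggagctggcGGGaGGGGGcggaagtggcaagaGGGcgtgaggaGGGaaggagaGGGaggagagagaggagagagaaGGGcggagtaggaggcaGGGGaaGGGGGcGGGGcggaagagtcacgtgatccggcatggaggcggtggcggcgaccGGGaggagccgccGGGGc
THRAP3: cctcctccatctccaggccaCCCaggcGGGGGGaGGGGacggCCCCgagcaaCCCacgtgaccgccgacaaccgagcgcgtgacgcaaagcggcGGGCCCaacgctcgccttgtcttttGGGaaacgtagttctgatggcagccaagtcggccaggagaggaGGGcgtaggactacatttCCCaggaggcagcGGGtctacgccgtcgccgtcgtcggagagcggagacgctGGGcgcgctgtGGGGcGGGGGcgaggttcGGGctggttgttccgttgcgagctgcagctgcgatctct
SNX8: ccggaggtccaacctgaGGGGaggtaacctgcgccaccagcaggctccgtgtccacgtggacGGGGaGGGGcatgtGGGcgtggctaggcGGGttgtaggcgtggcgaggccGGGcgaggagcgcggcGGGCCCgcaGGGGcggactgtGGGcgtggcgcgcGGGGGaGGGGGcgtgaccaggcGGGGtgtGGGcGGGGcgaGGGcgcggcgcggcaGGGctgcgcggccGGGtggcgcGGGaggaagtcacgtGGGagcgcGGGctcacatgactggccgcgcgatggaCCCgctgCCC
FAM117A: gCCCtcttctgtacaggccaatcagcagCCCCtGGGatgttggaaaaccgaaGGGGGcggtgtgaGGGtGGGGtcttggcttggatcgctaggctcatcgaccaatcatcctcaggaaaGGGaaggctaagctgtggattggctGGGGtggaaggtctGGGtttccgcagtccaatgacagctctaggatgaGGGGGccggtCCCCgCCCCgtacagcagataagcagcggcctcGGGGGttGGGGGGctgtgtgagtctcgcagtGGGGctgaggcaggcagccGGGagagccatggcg

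The windows marked in HD alone were those of FAM222B (chr17:28812422-28812721, minus strand) and TANGO2 (chr22:20020858-20021157, plus strand).
FAM222B: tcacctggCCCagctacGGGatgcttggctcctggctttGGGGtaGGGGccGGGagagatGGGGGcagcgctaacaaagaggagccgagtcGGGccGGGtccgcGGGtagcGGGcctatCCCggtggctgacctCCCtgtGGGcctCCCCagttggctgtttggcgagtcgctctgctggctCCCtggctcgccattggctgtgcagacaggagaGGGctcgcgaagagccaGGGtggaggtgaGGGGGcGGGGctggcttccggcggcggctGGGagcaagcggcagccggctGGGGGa
TANGO2: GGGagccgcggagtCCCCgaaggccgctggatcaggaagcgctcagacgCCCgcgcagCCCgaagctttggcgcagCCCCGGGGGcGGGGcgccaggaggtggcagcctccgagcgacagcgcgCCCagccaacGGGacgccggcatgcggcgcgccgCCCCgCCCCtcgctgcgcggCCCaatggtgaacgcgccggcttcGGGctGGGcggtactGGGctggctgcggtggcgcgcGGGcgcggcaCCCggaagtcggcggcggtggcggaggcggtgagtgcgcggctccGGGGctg

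The windows marked in Ctrl alone were those of DKKL1 (chr19:49363627-49363926, plus strand) and PRRC2B (chr9:131393836-131394135, plus strand).
DKKL1: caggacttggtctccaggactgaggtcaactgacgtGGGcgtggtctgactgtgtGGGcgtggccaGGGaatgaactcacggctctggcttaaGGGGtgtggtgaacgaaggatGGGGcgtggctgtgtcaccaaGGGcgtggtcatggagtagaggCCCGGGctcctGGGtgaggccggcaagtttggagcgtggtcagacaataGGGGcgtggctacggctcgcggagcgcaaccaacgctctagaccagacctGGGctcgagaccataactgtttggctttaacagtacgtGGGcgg
PRRC2B: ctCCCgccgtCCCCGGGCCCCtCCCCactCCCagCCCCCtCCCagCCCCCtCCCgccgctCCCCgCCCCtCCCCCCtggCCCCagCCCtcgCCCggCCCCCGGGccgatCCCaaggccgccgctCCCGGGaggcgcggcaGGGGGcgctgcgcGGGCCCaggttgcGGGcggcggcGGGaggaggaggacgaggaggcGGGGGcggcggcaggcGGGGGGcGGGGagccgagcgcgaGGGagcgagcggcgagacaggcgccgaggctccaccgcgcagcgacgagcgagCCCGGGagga

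The windows differed in which strand carried the guanines. The USP32, SNX8, FAM222B and DKKL1 windows held 16, 20, 16 and 11 runs of G on the printed strand, and 5, 3, 5 and 1 runs of C. GNAI2, an inhibitory G-protein subunit, had the opposite make-up, with 5 runs of G and 19 runs of C. PRRC2B had 12 and 20, and its GC content of 83.7% was the highest of the 9. A motif of 4 runs of GGG with spacers of 1 to 7 N was searched on both strands, and overlapping matches counted once per window. It was present on the printed strand of SNX8 and FAM222B and on the other strand of GNAI2 and PRRC2B, and the other windows had no match.

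For each gene-interior peak at a listed inner start, only the window that it overlapped most was taken. The motif was present in 49.2% of 65 such HD windows and 51.3% of 113 such Ctrl windows. It was present in 23.8% of the 4459 listed inner starts without a peak and in 24.9% of all 34961 listed windows. Median GC content was 69.7% in the HD windows and 69.3% in the Ctrl windows, against 55.0% at inner starts without a peak. Windows at the ends of coding genes that carried a peak had median GC contents of 68.7% (HD) and 68.3% (Ctrl), and 37.5% and 37.9% of them held the motif. These were all windows there that a peak of any kind overlapped, 1489 in HD and 2028 in Ctrl. They were not chosen like the inner-start windows, so the motif shares of these kinds of window are not compared. Of all 19484 listed windows at coding-gene ends, 31.8% held the motif. Summits of the interior peaks at inner starts lay a median of 116 bp from the listed start in both lists. They fell at or downstream of it for 6 of the 65 HD peaks and 12 of the 113 Ctrl peaks. The window reaches farther upstream than downstream, which favours upstream summits, so no side is read from these counts. A peak of any kind overlapped the windows of 1.88% of the 4626 listed inner starts in HD and 3.05% in Ctrl. At coding-gene ends it did so for 7.64% and 10.4% of the 19484 listed starts. No genome sequence of the files' build was used here, so the sequence under the remaining peaks was not examined.

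Gene interiors were thinly marked. The 239 HD peaks made up 11% of the HD list on these chromosomes (exact binomial 95% interval 9.72 to 12.4) and the 462 Ctrl peaks 13.7% of the Ctrl list (12.5 to 14.9). The odds ratio of interior location, HD over Ctrl, was 0.780 (Fisher's exact test, two-sided, Benjamini-Hochberg adjusted p = 0.00822 over 5 tests). The Ctrl list was then cut to its 2172 peaks of highest −log10 q, the number that the HD list has on these chromosomes. The odds ratio was then 0.946 (Fisher's exact test, unadjusted p = 0.598), and the difference no longer passed the threshold. Interiors span 1183 Mb and held 0.202 HD and 0.390 Ctrl peaks per Mb. Within 1 kb of coding-gene ends there were 18.3 HD and 25.1 Ctrl peaks per Mb, which is 90.5 and 64.4 times as many.

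The host genes numbered 226 in HD (1.14% of 19821 coding genes) and 416 in Ctrl (2.1%), or 505 in either list (2.55%). Of these, 137 were hosts in both lists, which is 60.6% of the HD hosts and 32.9% of the Ctrl hosts. Most hosts had 1 peak: 209 in HD and 366 in Ctrl, each peak counted for its longest host. A peak at an end of the same gene accompanied 22 HD peaks (9.21%) and 80 Ctrl peaks (17.3%). The remaining interior peaks had none in their list. As a rough background, 7.64% (HD) and 10.4% (Ctrl) of the 19484 listed starts at coding-gene ends had a peak. That is a share of starts and not of genes, so no excess is read from these values.

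Hosts were long genes. Their median length over peaks was 59.1 kb in HD and 77.2 kb in Ctrl, against 27.9 kb for the 18500 coding genes that have an eligible interior. Per unit of length the order was the opposite. Genes under 20 kb had 0.804 HD and 1.14 Ctrl peaks per Mb of interior, and genes over 300 kb had 0.0564 and 0.146. Sharing was also lower in the longest class. In genes under 20 kb the other list held 58.1% of 43 HD peaks and 41.0% of 61 Ctrl peaks. In genes over 300 kb it held 37.5% of 24 HD peaks and 14.5% of 62 Ctrl peaks. The HD share there rests on few peaks, and the length classes were not tested.

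Chromosome 22 was the densest, with 0.857 HD and 1.77 Ctrl peaks per Mb of coding-gene interior. Chromosome 19 followed in HD, with 0.839 HD and 0.912 Ctrl peaks per Mb, and chromosome 17 came second in Ctrl, with 0.575 HD and 1.18 Ctrl peaks per Mb. These are gene-dense, GC-rich chromosomes. The X chromosome had 0 HD peaks and 3 Ctrl peaks in 48.1 Mb. Chromosome 6 was the exception in direction, with 10 HD and 7 Ctrl peaks; on each of the other 22 chromosomes the HD list had fewer interior peaks than the Ctrl list.

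**Figure D1:**
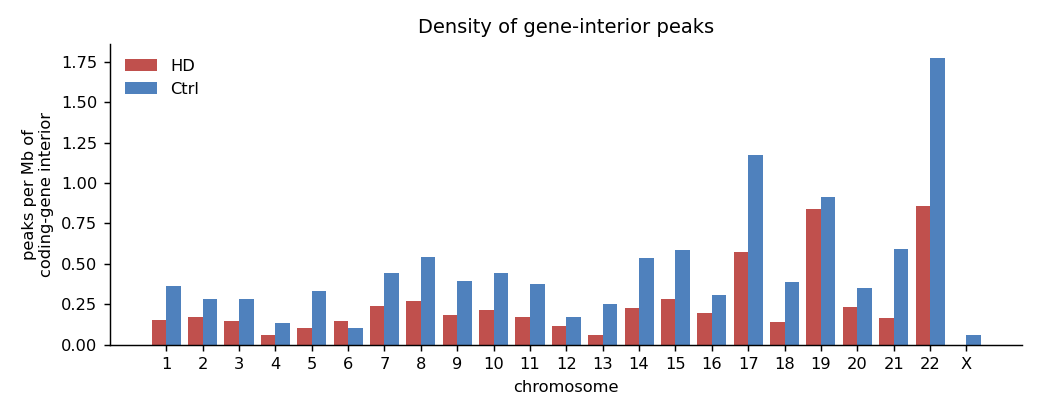
Gene-interior peaks per Mb of coding-gene interior on each chromosome, with HD bars left of Ctrl bars. Chromosomes 17, 19 and 22 stand above the rest in both lists, and chromosome 6 is the only one where the HD bar is higher.

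Along the host gene, peaks were more frequent in the part nearer to its outer start. The strand was known for the hosts of 186 HD and 366 Ctrl peaks. The summit was nearer to the start than to the end in 65.1% of these HD peaks (exact binomial 95% interval 57.7 to 71.9) and in 59.6% of these Ctrl peaks (54.3 to 64.6). The share differed between peaks at listed inner starts and the others. At listed inner starts 84.6% of HD and 80.5% of Ctrl peaks were nearer to the outer start, while away from them the shares were 54.5% (45.2 to 63.6) and 50.2% (43.9 to 56.5). The first 20% of the gene length held 25.8% of HD and 25.7% of Ctrl peaks, and the last 20% held 10.8% and 14.8%. The split by inner starts was chosen after the values were seen and was not tested. How many of all listed inner starts lie nearer to the outer start is not given here. The shares at inner starts therefore have no background.

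**Figure D2:**
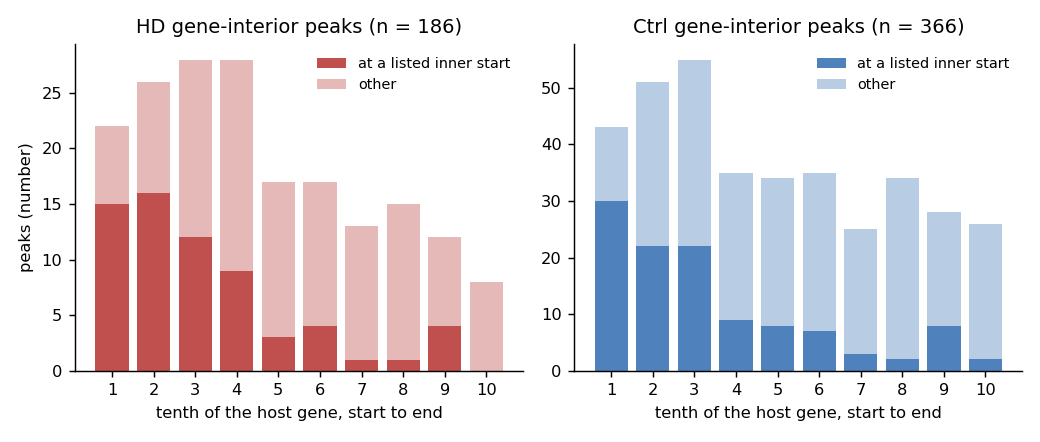
Number of gene-interior peaks in 10 equal parts of the host gene, from the start (1) to the end (10), for HD (left) and Ctrl (right) peaks with a known host strand. Dark parts of the bars are peaks at a listed inner start, which lie mostly in parts 1 to 4, and the pale segments are spread more evenly.

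Gene-interior peaks were found in the other list less often than peaks at gene ends. In HD, 130 of 239 interior peaks (54.4%, 47.8 to 60.8) overlapped a Ctrl peak by at least 1 bp, against 63.8% of 1318 peaks at coding-gene ends and 59.7% of all HD peaks on these chromosomes. In Ctrl, 132 of 462 interior peaks (28.6%, 24.5 to 32.9) overlapped an HD peak, against 46.3% of 1811 peaks at coding-gene ends and 38.5% of all Ctrl peaks. The odds ratio of sharing, interior over gene end, was 0.676 in HD (Fisher's exact test, two-sided, adjusted p = 0.0119) and 0.463 in Ctrl (adjusted p = 1.41e-11). Against peaks elsewhere, which were shared for 52.8% of 615 HD and 29.8% of 1103 Ctrl peaks, the odds ratios were 1.06 and 0.941 (Fisher's exact test, adjusted p = 0.703 for both).

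The authors' fold over the caller's local background was lower in the interior than at coding-gene ends. Median folds were 3.96 (HD) and 4.07 (Ctrl) in the interior, against 4.25 and 4.51 at coding-gene ends. Peaks elsewhere had lower medians still, 3.41 and 3.51. Among the 20% of each list with the lowest fold fell 25.9% of HD and 17.5% of Ctrl interior peaks, against 7.74% and 7.12% of gene-end peaks. In 5 classes of equal size by fold over each whole list, from low to high, 50%, 41.5%, 53.7%, 50% and 78.6% of HD interior peaks were shared. For Ctrl interior peaks the shares were 27.2%, 18.5%, 20%, 30.8% and 59.4%. The class of highest fold stood apart from the others, which showed no steady order. In that class 82.5% of HD and 57.2% of Ctrl gene-end peaks were shared, so the Ctrl interior share was not the lower one there. In a logistic model with fold and peak width, the odds ratio of sharing for interior against gene-end peaks was 0.718 in HD (0.537 to 0.962, Wald p = 0.0263, n = 2172 peaks). In Ctrl it was 0.483 (0.380 to 0.613, Wald p = 2.42e-09, n = 3376 peaks). For peaks elsewhere against gene-end peaks the same model gave 0.658 in HD (0.525 to 0.826) and 0.519 in Ctrl (0.430 to 0.628). Lower sharing than at gene ends was therefore not particular to the interior. The HD odds ratio for interior peaks did not pass the threshold under 4 of 12 other settings, for example with an odds ratio of 0.777 when gene ends reached 5 kb.

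Within the interior, sharing was set out by listed inner starts, a split that was chosen after the values were seen and was not tested. In HD, 72.3% of the 65 peaks there were shared (59.8 to 82.7), against 47.9% of the 121 other peaks in listed hosts (38.8 to 57.2). In Ctrl, 42.5% of the 113 peaks at inner starts were shared (33.2 to 52.1), against 22.8% of the 254 other peaks in listed hosts (17.8 to 28.5). Hosts with no listed start, where inner starts are unknown, held 53 HD and 95 Ctrl peaks, of which 47.2% and 27.4% were shared. The intervals of the first and second kinds of interior peak do not overlap in either list. They cover counting error only, and shared peaks enter both lists, so the lists are not independent repeats. These kinds also differed in fold. Its median was 4.455 (HD) and 4.35 (Ctrl) at inner starts, against 3.61 and 3.96 at the other peaks in listed hosts. Location and fold were not separated in this split. The gene-end shares of 63.8% in HD and 46.3% in Ctrl fall within the intervals of the peaks at inner starts.

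**Figure D3:**
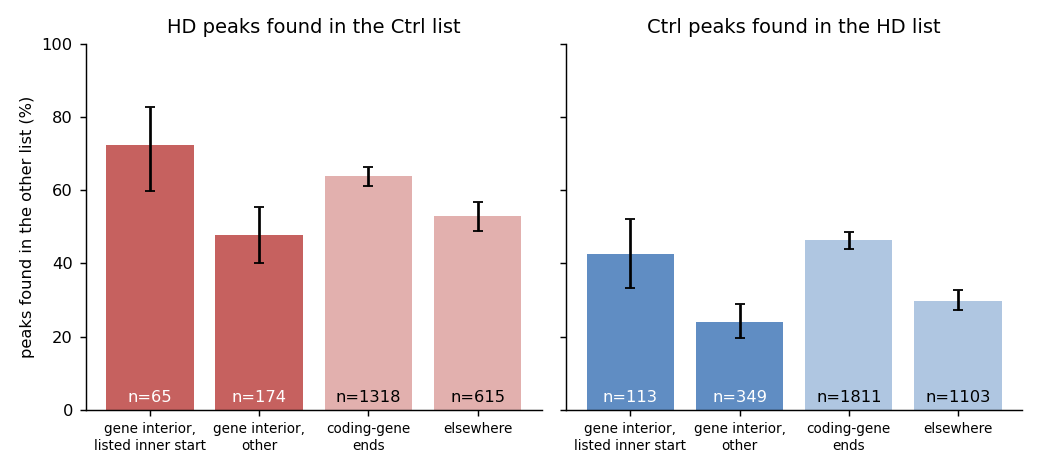
Percentage of HD peaks (left) and Ctrl peaks (right) found in the other list by 1 bp overlap, for 4 kinds of location. Error bars are exact binomial 95% intervals, which cover counting error only, and n is the number of peaks. The other interior peaks include those in hosts with no listed start. In both panels interior peaks at listed inner starts stand above the other interior peaks.

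Peaks on either side of the 1 kb limit were compared as a description. Of HD peaks in coding genes 1 to 1.5 kb from the nearest gene end, 14 of 26 were shared, and of those 0.5 to 1 kb away, 34 of 55. In Ctrl these were 16 of 37 and 35 of 88.

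Where a gene-interior peak was called in both lists, the HD to Ctrl ratio of its fragments mostly lay near the depth ratio. Only peaks that passed the caller in both lists enter here. Peaks called in 1 list have no fragment number in the other, so a difference in height there cannot be seen. ChIP fragments at each summit were recovered as whole numbers from the deposited fold and p, and the HD list had 27539 fragments per Mb against 19603 in the Ctrl list, a ratio of 1.40. At the 130 HD interior peaks with a Ctrl partner the median was 41.5 HD fragments and 31 Ctrl fragments. The median depth-scaled HD to Ctrl ratio was 0.949 (quartiles 0.811 to 1.08, range 0.518 to 1.38). The 95% interval of this ratio, from counting error alone, covered 1 at 125 of the 130, lay above it at 1 and below it at 4. Over the 1295 shared HD peaks with fragment numbers on both sides, of 1296 in all, 1.24% lay above and 2.47% below. At such counts the intervals are wide, for example 0.666 to 1.46 at GNAI2. An interval that covers 1 therefore does not show equal height.

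The 5 intervals that missed 1 are a share like that over all shared peaks, and 95% intervals miss by counting error alone at times, so the genes are given as values only. In KAT6B, a histone acetyltransferase, the HD peak had 44 fragments and the Ctrl peak 49 (ratio 0.639, 0.416 to 0.980). In RASA3, a Ras GTPase-activating protein, they were 24 and 33 (ratio 0.518, 0.293 to 0.903). WNT7B, a Wnt ligand, had 24 and 32 (0.534, 0.301 to 0.935), and RASIP1, a Ras-interacting protein, had 24 and 31 (0.551, 0.309 to 0.970). The peak above 1 was in DUX4, with 1647 HD and 1085 Ctrl fragments (1.08, 1.00 to 1.17), where the caller expected 1026 and 712 fragments from input. RASA3, WNT7B and RASIP1 were named for these ratios after the values were seen.

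**Figure D4:**
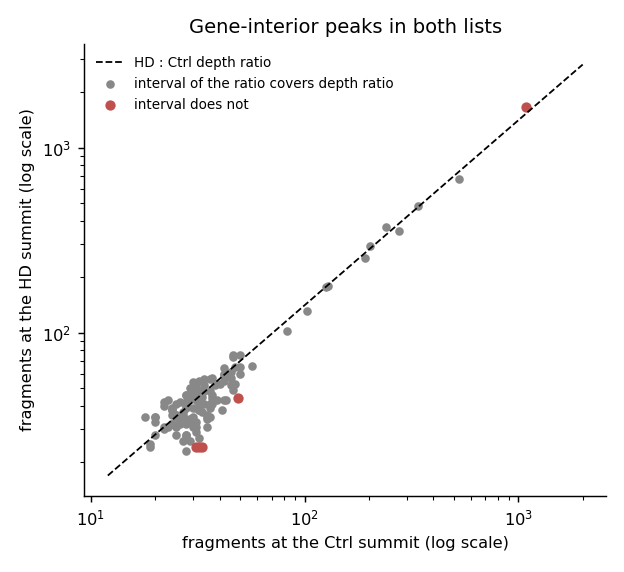
ChIP fragments at the HD summit (vertical, log scale) against those at the Ctrl summit (horizontal, log scale) for the 130 HD gene-interior peaks with a Ctrl partner. The dashed line is the depth ratio of 1.40; red points are the 5 peaks whose 95% counting interval does not cover it.

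Among the peaks ranked highest in both lists were those of DUX4, HFM1, CYRIB, PLCD1, GNAI2, USP42, ADAM11, CRYBA4, KAT6B and USP32. HFM1, a meiotic DNA helicase, had 130 HD and 103 Ctrl fragments at chr1:91387293-91387504, where input predicted 37.8 and 25.9. CYRIB, a RAC1-binding protein, had 74 HD and 46 Ctrl fragments, with 12.6 and 7.55 expected. PLCD1, a phospholipase C, had 65 and 50 fragments. The GNAI2 peak lay at a listed inner start, and it had 65 HD and 47 Ctrl fragments 8.98 kb and 8.88 kb from the gene's outer start. USP32, a deubiquitinase, had 60 and 50 fragments at an inner start 30.3 kb into a gene of 245 kb. USP42, another deubiquitinase, had 61 and 45 fragments. ADAM11, of the disintegrin family, had 52 and 38. The peak named for CRYBA4, a lens crystallin, had 76 and 50. In all but DUX4 and KAT6B the interval of the depth-scaled ratio covered 1.

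Of the 109 HD interior peaks that no Ctrl peak overlapped, 18 lay at a listed inner start. The strongest was in FAM222B (chr17:28812433-28812663), with 44 fragments against 6.55 expected from input and the nearest Ctrl peak 85.3 kb away. The TANGO2 peak (chr22:20020853-20021126) had 51 fragments against 10.4 expected. PDIA6, a protein disulfide isomerase, had 41 fragments against 7.0. CELF1, an RNA-binding splicing regulator, had 40 against 6.53, and GCNT1, a glycosyltransferase, had 37 against 5.60. UBXN2A had 36 against 5.77. These 6 of the 10 strongest lay at listed inner starts. The other 4 were TSNARE1, a host with no listed start (47 fragments), P4HA2, a collagen prolyl hydroxylase (42), KCNMA1, a calcium-activated potassium channel (42), and MYO15B (37).

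Of the 330 Ctrl interior peaks without HD overlap, 65 lay at a listed inner start. The 10 strongest included 2 of these, DKKL1 (34 fragments against 4.32 expected) and PRRC2B (30 against 3.74). ZNF768, a zinc finger gene, led with 34 fragments against 4.01 expected at chr16:30527322-30527650. SMAD6, an inhibitor of BMP and TGF-beta signalling, had 39 against 5.93 at 96.9% of the way along the gene, and UQCC1, a complex III assembly factor, had 34 against 4.32 at 97.0%. DLGAP1, a postsynaptic scaffold, had 46 against 8.44, with an HD peak 2.51 kb away. TNS3, a tensin, had 34 against 4.90, and there the nearest HD peak was 6.55 kb away. HS1BP3, FBXO46 and PRSS36 had 36, 30 and 31 fragments. Absence from the other list means that no peak was called there, since fragment numbers are recovered at called peaks alone.

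A few genes held several interior peaks. CUEDC1 had 2 HD and 5 Ctrl peaks. Both HD peaks, with 55 and 43 fragments, overlapped Ctrl peaks of 42 and 43, and the other 3 Ctrl peaks had 43, 24 and 27. ZMIZ1, a transcriptional coactivator, had 3 peaks in each list: HD peaks of 35, 48 and 32 fragments and Ctrl peaks of 27, 36 and 29. The first and second of each coincided, and the others lay 88.6 kb (HD) and 110 kb (Ctrl) from the nearest gene end. SIN3A, the scaffold of a histone deacetylase complex, had 2 HD peaks (46 and 36 fragments) and 3 Ctrl peaks (23, 28 and 35), all within 5 kb of its outer start. TSNARE1 had 2 HD and 3 Ctrl peaks, of which 1 pair overlapped, with 49 HD and 46 Ctrl fragments.

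**Figure D5:**
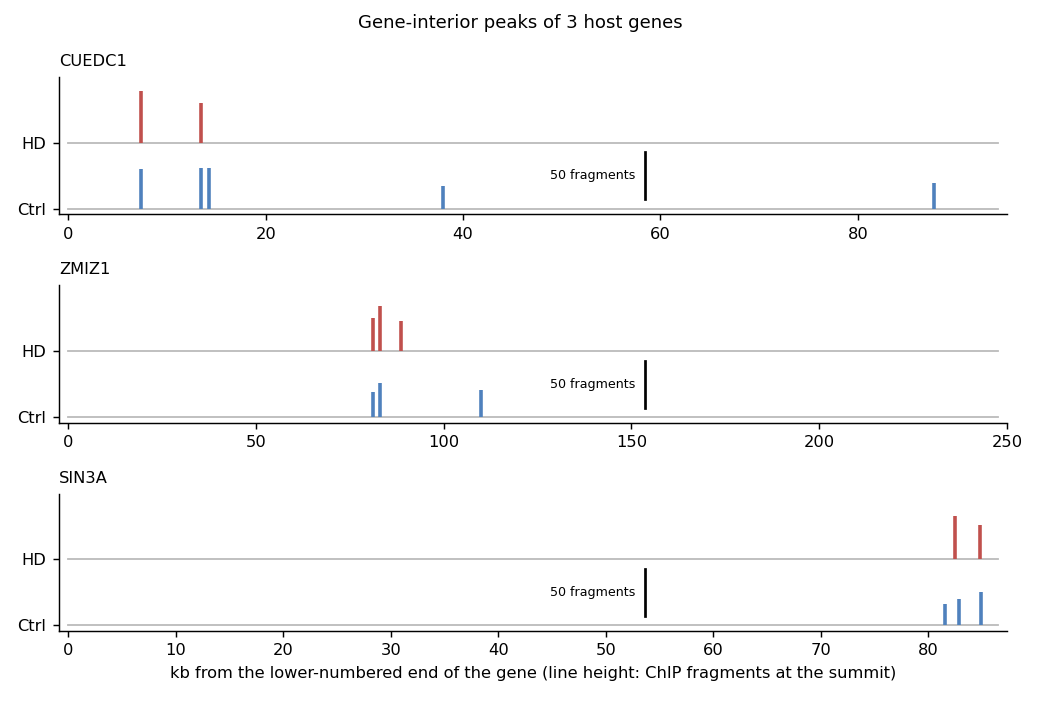
Positions of gene-interior peaks in CUEDC1, ZMIZ1 and SIN3A, in kb from the lower-numbered end of the gene, with HD above Ctrl. Line height is the number of ChIP fragments at the summit, to the scale of the black bar (50 fragments). In each gene 2 HD peaks sit over Ctrl peaks.

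DUX4, the double homeobox gene of the D4Z4 repeat, had 3 peaks in each list. They had 373, 674 and 1647 HD fragments and 241, 530 and 1085 Ctrl fragments, but the caller expected 249, 431 and 1026 fragments from input in HD and 163, 255 and 712 in Ctrl. The ratios to expectation were 1.5, 1.56 and 1.61 in HD and 1.48, 2.08 and 1.52 in Ctrl. Other interior peaks also had a high input expectation. It was over 3 times the genome-wide one at 28 HD peaks (11.7%) and 33 Ctrl peaks (7.14%), against 2.28% and 2.04% of gene-end peaks, and over 10 times at 10 peaks of each list. Those over 10 times lay in DUX4, ART1, EEF1A1, RPS6, SERPINA1, TMEM242 and ARHGEF18 in both lists, and also in INS-IGF2 in Ctrl. How reads that map to several copies were treated is not stated in the sources.

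Some peaks lay far from any gene end. The most distant HD peak was in AGBL1, 308 kb from the nearest end, with 29 fragments against 6.16 expected. SDK1, a cell adhesion molecule, had one 242 kb away (32 against 9.80) and CACNA1C, a calcium channel subunit, one 139 kb away (43 against 14.8). The most distant Ctrl peak was in ZNF536, 167 kb away, with 27 fragments against 7.14. PTPRN2 held 2 further Ctrl peaks, 159 and 158 kb away, with 83 fragments against 36.7 and 43 against 12.8. LRMDA had 1 at 155 kb with 21 against 4.94. None of these was shared. Of the 56 HD and 103 Ctrl peaks over 20 kb from any gene end, 42.9% and 23.3% were shared.

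The 10 gene lists were looked up in both peak lists, and all their members matched the annotation. Of 25 long genes near chromosome ends, 2 were marked in HD (RASA3 and SDK1) and 6 in Ctrl (PTPRN2, MAD1L1, RASA3, CAMTA1, RPTOR and ATP11A). Among 25 genes of fragile sites and other giant genes, 0 were marked in HD and 1 in Ctrl, AUTS2 with 25 fragments. Of 35 genes of TGF-beta, Hippo and Wnt signalling, HD marked the receptor TGFBR1 (32 fragments, at an inner start) and the transcription factors TEAD4 (28) and SMAD3 (34), and Ctrl marked SMAD6 and the Wnt transducer DVL1 (18). Among 30 actin and adhesion genes, those marked included TLN2, a talin, in HD (28) and PLEC, a plectin (39), and MYH9, a non-muscle myosin (23), in Ctrl.

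The remaining lists had few or no marked genes. Of 25 genes with known internal promoters, HD marked TCF7L2 (28 fragments) and Ctrl marked RARA, a retinoic acid receptor (30, at an inner start), and IGF2, through the overlapping INS-IGF2. Of 22 oncogenes with described promoter G4s, 0 were marked in the interior in HD and 3 in Ctrl: TERT, the telomerase reverse transcriptase (35), RET, a receptor tyrosine kinase (22), and HSP90AA1, a chaperone, at an inner start 52.5 kb from its outer start (26). Of 38 chromatin modifiers, 0 were marked in HD and 2 in Ctrl, KDM2B and HDAC5 with 26 each. Of 25 collagen and matrix genes, 0 were marked in HD and 2 in Ctrl, LOXL2 (22) and COL18A1 (21). Neither the 37 clustered protocadherins nor the 22 G4-unwinding helicases and G4-binding proteins had an interior peak in either list. These counts stand beside the backgrounds of 1.14% of coding genes in HD and 2.1% in Ctrl, and no list was tested. The backgrounds cover coding genes of all lengths (median 24.5 kb) and were not matched for length. List medians ran from 31.8 kb for the G4-unwinding helicases and G4-binding proteins to 353 kb near chromosome ends and 1504 kb for giant genes. The 771 genes over 300 kb held 24 HD and 62 Ctrl interior peaks, and the 8855 genes under 20 kb held 43 and 61. No excess is therefore read from the list counts.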

How the data were processed

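The study measured G-quadruplex antibody binding by BG4 ChIP-seq in U2OS cells, treated with 1,6-hexanediol (HD) or untreated (Ctrl). Each condition had 2 ChIP libraries and 1 input. The submitters' processing notes list MACS2 2.2.7.1, SAMtools, Bowtie2 2.5.0 and FastQC 0.11.9, on hg38. The authors deposited 1 peak list per condition, with a fold (a ratio over the caller's local background), −log10 p and −log10 q, and a score that the authors' caller made from −log10 q and that was not used. Every HD peak name carries the number of 1 library, so the HD list may rest on 1 library. Input files were not analysed here. The lowest −log10 q was 1.30 in HD and 1.31 in Ctrl.

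Peaks were located with the RefSeq gene table of GRCh38.p14 after genes of unplaced scaffolds were dropped (58961 of 59792 kept). Members and gene lists were chosen with earlier results of these data known. Named genes are the 10 highest ranked in both lists and in each list alone, by −log10 q, the 5 hosts with most peaks, the 5 most distant peaks per list and up to 4 genes per gene list. One item that this rule names is not reported here. Fragment numbers were recovered from fold and p, with a match to −log10 p within 0.01, for all 239 HD and 462 Ctrl members. More than 1 solution existed for 4 and 12 of them. The recovered scales were 0.715 and 0.927 and the genome-wide expectations 3.94 and 3.46. Sharing was tested by Fisher's exact test and logistic regression (Python 3.11.15, SciPy 1.17.1, statsmodels 0.14.6). The fragment recovery and the logistic model were checked on simulated data, and Fisher's exact test was not. Intervals cover counting error only, and PCR copies cannot be told from independent molecules. Alternatives were other distances from gene ends, ends of coding genes alone, the summit, stricter q, equal list length, and 2 other overlap rules.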

Additional observations from a re-analysis of the deposited data

How the results depend on the processing

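Under 12 alternatives, 106 of 123 values kept their direction and their side of the threshold or stayed within their limits. The odds ratio of sharing, Ctrl interior against gene end, stayed between 0.367 and 0.654, past the threshold in every alternative run. The HD one ranged from 0.517 to 0.749. It missed the threshold with gene ends of 5 kb (0.729, Fisher's exact p = 0.0747) and −log10 q of at least 3 (0.749, p = 0.0730). In the logistic model the HD odds ratio missed it with ends of 2 kb (0.754), ends of 5 kb (0.777), −log10 q of at least 3 (0.781) and equal list length (0.809). The causes were not tested.

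Gene ends of 5 kb left 147 HD interior peaks. Lists of equal length left 251 Ctrl interior peaks, and then 43.5% of HD and 41.8% of Ctrl interior peaks were shared, the odds ratio of sharing for Ctrl interior against elsewhere was 1.10 and the odds ratio of interior location was 0.946 (Fisher's exact p = 0.598). That alternative removes the Ctrl peaks of lowest −log10 q by construction. Both remaining alternatives were chosen after seeing the data. Without peaks of high input expectation, the odds ratio of sharing for Ctrl interior against elsewhere was 1.05. Without peaks at listed inner starts, 47.7% of HD and 24.1% of Ctrl interior peaks were shared, and the odds ratios against elsewhere were 0.814 in HD and 0.746 in Ctrl (Fisher's exact p = 0.0411).

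No paired analysis was possible because 1 peak list was deposited per condition. For the same reason no replicate was left out. Depth was 1.40 times higher in HD.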
